A study of Mus musculus with 7 samples.

Results

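The Cyp3a family holds the mouse counterparts of the human drug-metabolizing CYP3A enzymes, and Por encodes the NADPH-cytochrome P450 oxidoreductase that passes electrons to them. The 8 genes described here were taken by symbol from the liver expression table of the series, which lists 21706 genes. They are Cyp3a11, Cyp3a13, Cyp3a16, Cyp3a25, Cyp3a41a, Cyp3a44 and Cyp3a59, together with Por. The table holds 2 further Cyp3a genes, Cyp3a41b and Cyp3a57, whose values are given for completeness. Liver mRNA was sequenced from male C57BL/6 mice, an inbred laboratory strain, which were 8 weeks old and were injected intraperitoneally for 2 weeks with either a control oligo or tsRNA-Glu-CTC Oligo-1, a synthetic copy of a small RNA that derives from the glutamate transfer RNA. There were 4 control oligo libraries (controls 1 to 4) and 3 oligo-1 libraries (oligo-1 1 to 3) and no gene was deleted in any group. Each library came from a separate mouse, per the study, and all mice ate a low-fat AIN76 diet with little cholesterol. The comparison asks how the hepatic level of each gene differed between mice that received oligo-1 and mice that received the control oligo.

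Cyp3a proteins are haem-containing monooxygenases of the endoplasmic reticulum. In hepatocytes they oxidize steroids, bile acids and a wide range of drugs. Each catalytic cycle needs electrons that Por takes from NADPH, and cytochrome b5 can deliver part of them. Transcription of Cyp3a11 is switched on by the nuclear receptors PXR (Nr1i2) and CAR (Nr1i3), which bind DNA as heterodimers with RXR, while HNF4α maintains basal levels in the liver.

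All 10 genes lie on chromosome 5 of the mouse genome (GRCm38, the same build as mm10, with gene positions from GENCODE M21) and all are protein-coding. Por lies at chr5:135670033-135735326 on the + strand and Cyp3a13 at chr5:137892932-137921619 on the - strand. The other members form a cluster further along the chromosome, with Cyp3a16 at chr5:145436309-145469723, Cyp3a41a at chr5:145694049-145720136, Cyp3a44 at chr5:145773983-145805874, Cyp3a11 at chr5:145854426-145879964 and Cyp3a25 at chr5:145977194-146009618, all on the - strand. Cyp3a59 at chr5:146079257-146113287 closes the cluster on the + strand. Neighbours in the cluster resemble each other closely, which matters for how short reads are assigned. Of the 31-base words of Cyp3a41a transcripts (31 bases is the default word length of kallisto, the program that made the table), 96.1% also occurred in Cyp3a41b, and 0.148% occurred in no other gene of the set. Cyp3a25 and Cyp3a59 shared 41.5% and 42.4% of their words with each other, and 53.9% and 51.1% of their words were found in no other gene of the set. For Cyp3a11, 67.6% of the words were found in no other gene of the set, and the remainder was shared with Cyp3a16, Cyp3a41a, Cyp3a41b and Cyp3a44. Nearly all words of Cyp3a13 (99.9%) and all words of Por (100%) were their own, so few or no reads could be divided between these genes and the rest of the family. Cyp3a44 shared 20.5% of its words with Cyp3a11. Values of Cyp3a41a, Cyp3a44, Cyp3a25 and Cyp3a59 are uncertain as single-gene values because of such shared words.

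**Figure D1:**
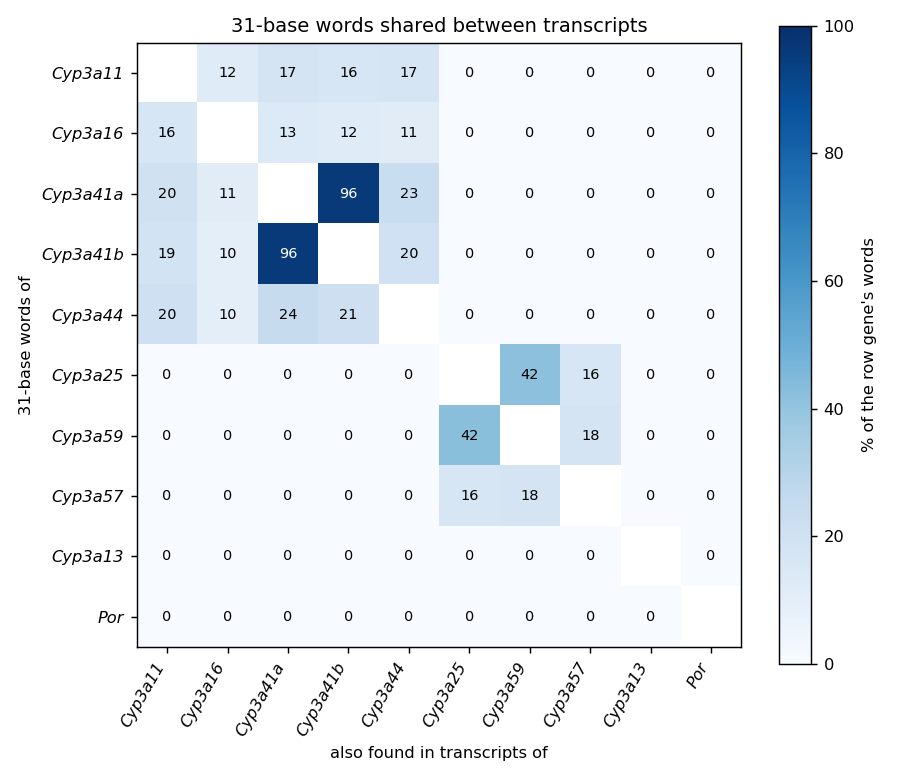
Share of the 31-base words of each gene (rows) that also occur in transcripts of another gene (columns), in percent of the words of the row gene, from GENCODE M21 transcripts. Cyp3a41a and Cyp3a41b share 96% of their words, Cyp3a25 and Cyp3a59 share 42%, and Cyp3a13 and Por share nearly none.

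The promoters of the clustered genes grouped as the transcripts did. The stretches shown run from position -200 to position -81 relative to each gene's RefSeq start site (GRCm38.p6, windows matched for 8 of 8 members), because they hold the motif matches by which the members differ. Capitals mark exact matches to AGGTCA, the half-site that nuclear receptors recognize, on either strand (TGACCT on the other strand), and to CAAAGTCCA, an HNF4-type element, on either strand.
Cyp3a11, chr5:145879935-145880054, - strand: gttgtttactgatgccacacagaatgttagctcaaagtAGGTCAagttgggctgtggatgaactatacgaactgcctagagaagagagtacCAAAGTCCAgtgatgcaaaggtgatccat
Cyp3a16, chr5:145469804-145469923, - strand: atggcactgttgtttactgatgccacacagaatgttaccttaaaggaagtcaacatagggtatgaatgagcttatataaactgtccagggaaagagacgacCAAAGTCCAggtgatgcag
Cyp3a41a, chr5:145720217-145720336, - strand: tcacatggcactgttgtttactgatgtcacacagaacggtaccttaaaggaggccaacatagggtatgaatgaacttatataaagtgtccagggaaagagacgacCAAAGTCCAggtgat
Cyp3a44, chr5:145805955-145806074, - strand: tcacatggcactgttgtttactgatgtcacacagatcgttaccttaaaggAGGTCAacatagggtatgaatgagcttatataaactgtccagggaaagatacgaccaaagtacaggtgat
Cyp3a25, chr5:146009699-146009818, - strand: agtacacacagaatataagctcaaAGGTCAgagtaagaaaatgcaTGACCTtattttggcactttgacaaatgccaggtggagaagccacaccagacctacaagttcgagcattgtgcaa
Cyp3a59, chr5:146079058-146079177, + strand: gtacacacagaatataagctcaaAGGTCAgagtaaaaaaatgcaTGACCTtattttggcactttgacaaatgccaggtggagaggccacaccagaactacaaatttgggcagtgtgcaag
AGGTCA was found in the 300-base window (from 250 bases before to 50 bases after the start) of 4 of the 8 members, against 16.26% of 32851 windows of the RefSeq table. These were Cyp3a11 (at position -162), Cyp3a44 (at position -150), Cyp3a25 and Cyp3a59, and the latter pair carried it on both strands. CAAAGTCCA was found in 3 of the 8 members, Cyp3a11, Cyp3a16 and Cyp3a41a, against 0.475% of all windows, and the motifs do not overlap each other. In Cyp3a44 the same element differed by C7A, counted from the first base of CAAAGTCCA. Neither motif was found in the windows of Cyp3a13 or Por. Over the whole windows, Cyp3a25 and Cyp3a59 were 95.7% identical, Cyp3a16 and Cyp3a44 were 93.4% identical, Cyp3a11 and Cyp3a44 were 71.8% identical, and Cyp3a11 and Cyp3a25 were 55.7% identical. CAAAGTCCA of Cyp3a11 begins at position -109, and the GENCODE transcript of Cyp3a11 starts at position -110 relative to the RefSeq start site, so this match lies upstream of the RefSeq start but inside the GENCODE transcript. A match describes letters only, and binding was not measured here.

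Levels are in TPM, the share of a library's transcripts that a gene takes once its length is allowed for. The number of reads behind each value is unknown, because TPM does not retain the depth of sequencing. Between 13046 and 16089 genes were above 0 per library. Hepatocyte markers were abundant in every library, with Alb (serum albumin) between 32507 and 47095 TPM. Controls 1 and 4 stood apart from the other 5 libraries. Their correlation with each other across genes, on the log2(TPM + 1) scale, was 0.988, their correlations with the other 5 libraries were between 0.928 and 0.947, and the other 5 correlated with each other at 0.965 to 0.987. Of 10455 genes tested, 5386 (51.5%) were higher in both controls 1 and 4 than in all other libraries, and 1883 (18.0%) were after the libraries were rescaled to a common median. All 10 Kupffer cell and macrophage markers and all 9 stellate cell and fibroblast markers were higher in them. The summed TPM of the macrophage list was 577 to 727 in controls 1 and 4, 79.2 to 91.6 in controls 2 and 3 and 101 to 130 in the oligo-1 libraries, and that of the stellate list was 340 to 371, 93.3 to 95.8 and 88.5 to 104, with no gene of either list at 0 in every library. In bulk tissue, fewer cells of a type and less RNA per cell cannot be told apart. Results are therefore also given without controls 1 and 4, a choice made after these values were seen.

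Genes with at least 1 TPM in at least 3 libraries were tested with limma on log2(TPM + 1). Fold changes are on that scale, where low genes show less than their full change. Of the 8 members, 5 passed this filter (Cyp3a11, Cyp3a13, Cyp3a25, Cyp3a59 and Por), and Cyp3a16, Cyp3a41a and Cyp3a44 did not. At an adjusted p below 0.05 (Benjamini-Hochberg over all 10455 genes), 0 of the 5 tested members and 0 genes of the table were called in limma (0% lower and 0% higher). At an unadjusted p below 0.05, 444 genes were lower with oligo-1 (4.25%) and 189 were higher (1.81%). All 5 tested members had lower fitted values with oligo-1, and 4 of them (Cyp3a11, Cyp3a13, Cyp3a25 and Cyp3a59) were below this unadjusted threshold. A rule that joins an unadjusted p below 0.01 to a fold change of more than 1.5 (the combined rule) was met in the lower direction by 87 genes (0.832%) and by 3 of the 5 members, Cyp3a13, Cyp3a25 and Cyp3a59, and in the higher direction by 67 genes (0.641%) and no member. Groups that did not overlap, with oligo-1 lower, were seen for 521 genes (4.98%) and for 3 of the 5 members, Cyp3a11, Cyp3a13 and Cyp3a25. With oligo-1 higher, they were seen for 209 genes (2%) and no member. With all libraries and no rescaling, the median of the log2 fold changes over all tested genes was -0.16. Relative to it, Cyp3a11 stood at -1.47, Cyp3a59 at -1.82, Cyp3a25 at -0.58, Cyp3a13 at -0.51 and Por at -0.22. The median was 0.00 after the libraries were rescaled to a common median and 0.06 without controls 1 and 4.

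Cyp3a11, the main PXR-inducible Cyp3a enzyme of mouse liver, was the most abundant member. Its level was 2489, 423, 424 and 1428 TPM in controls 1 to 4 and 296, 331 and 243 TPM in the oligo-1 libraries. The oligo-1 libraries lay close together and below all 4 controls, while controls 1 and 4 lay far above controls 2 and 3. Mean TPM was 1191 ± 986 (SD, n = 4) in controls and 289.8 ± 43.9 (SD, n = 3) with oligo-1, and the log2 fold change was -1.63 (SE 0.57, 95% interval -2.93 to -0.34), with an unadjusted p of 0.0186 and an adjusted p of 0.767 in limma. Without controls 1 and 4 the log2 fold change was -0.56 (SE 0.17, adjusted p = 0.328). So the size of the difference rested on these controls, and its direction did not. The lower of controls 1 and 4 was 3.37 times the highest other library, a ratio that 1.40% of tested genes reached, and the part of the macrophage and stellate markers in it was not tested. The unadjusted p was 0.0619 without oligo-1 replicate 3.

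Cyp3a25, another hepatic member that oxidizes steroids, was at 203, 167, 253 and 171 TPM in controls 1 to 4 and at 101, 149 and 106 TPM with oligo-1. The groups did not overlap, although the nearest libraries, control 2 and oligo-1 replicate 2, were 167 and 149 TPM. Here controls 1 and 4 lay within the range of controls 2 and 3. The mean was 198.6 ± 40.0 (SD, n = 4) in controls and 118.6 ± 26.5 (SD, n = 3) with oligo-1, and the log2 fold change was -0.74 (SE 0.21, 95% interval -1.21 to -0.27, adjusted p = 0.549 in limma). Without controls 1 and 4 it was -0.81 (SE 0.24, adjusted p = 0.319).

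Cyp3a59, the neighbour of Cyp3a25 with which it shares reads, was much lower, at 20.3, 3.80, 9.19 and 15.6 TPM in controls 1 to 4 and at 1.76, 3.87 and 0.842 TPM with oligo-1. Control 2 lay just below oligo-1 replicate 2, so the groups overlapped, and the highest values were again in controls 1 and 4. Its log2 fold change was -1.98 (SE 0.51, 95% interval -3.13 to -0.83, adjusted p = 0.450 in limma), and -1.26 (SE 0.44, adjusted p = 0.401) without controls 1 and 4. Cyp3a25 stood at 10.01, 43.9, 27.6 and 10.9 times the TPM of Cyp3a59 in controls 1 to 4 and at 57.0, 38.5 and 126 times with oligo-1. This ratio was lowest in controls 1 and 4, and the groups overlapped in it.

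Cyp3a13, a family member outside the cluster that is also expressed in intestine, was at 69.4, 95.4, 82.9 and 69.0 TPM in controls 1 to 4 and at 47.2, 54.9 and 45.5 TPM with oligo-1. All oligo-1 libraries lay below all controls, and controls 1 and 4 were the lowest of the controls, opposite to Cyp3a11. Mean TPM was 79.2 ± 12.6 (SD, n = 4) and 49.2 ± 5.01 (SD, n = 3), with a log2 fold change of -0.67 (SE 0.18, 95% interval -1.06 to -0.27, adjusted p = 0.458 in limma). Without controls 1 and 4 the log2 fold change was -0.85 (SE 0.17, adjusted p = 0.168). Cyp3a13 shared almost no words with other members.

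The female-predominant members were near 0 in these male livers. Cyp3a44 was at 0.153, 0.0656, 0.206 and 0.141 TPM in controls 1 to 4 and was listed at 0, 0.0327 and 0.0506 TPM with oligo-1. All oligo-1 values were below all control values, but each was under 1 TPM and the gene was not tested. Cyp3a44 shares words with the far more abundant Cyp3a11, and the part of divided reads in its values was not tested. Cyp3a41a was listed at 0 in every library except control 4 (0.0933 TPM), and its near-copy Cyp3a41b at 0 except in control 4 (0.00651 TPM). Cyp3a16, a form of fetal and neonatal liver, was listed at 0 except in control 4 (0.0407 TPM), and Cyp3a57 was listed at 0 in all 7 libraries. These genes were outside the main test. With no filter on low values (17562 genes in limma), Cyp3a44 had a log2 difference of -0.15 (SE 0.05, unadjusted p = 0.0152, adjusted p = 0.809), which the added pseudocount compresses at such levels.

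Por, which serves all microsomal P450 enzymes, was at 229, 380, 251 and 161 TPM in controls 1 to 4 and at 183, 206 and 172 TPM with oligo-1. Control 4 was the lowest of all libraries and control 2 the highest, so the groups overlapped. The mean was 255.2 ± 91.5 (SD, n = 4) in controls and 186.8 ± 17.2 (SD, n = 3) with oligo-1, and the log2 fold change was -0.38 (SE 0.26, 95% interval -0.97 to 0.20, adjusted p = 0.775 in limma). Its unadjusted p in limma, 0.170, did not pass the threshold either. Without controls 1 and 4 it was -0.73 (SE 0.20, unadjusted p = 0.00602, adjusted p = 0.287), and all 3 oligo-1 libraries lay below controls 2 and 3. Without control 2 it was -0.17 (unadjusted p = 0.412) and without control 4 it was -0.58 (unadjusted p = 0.0244), so single controls moved the Por value by more than 1.5 times.

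**Figure D2:**
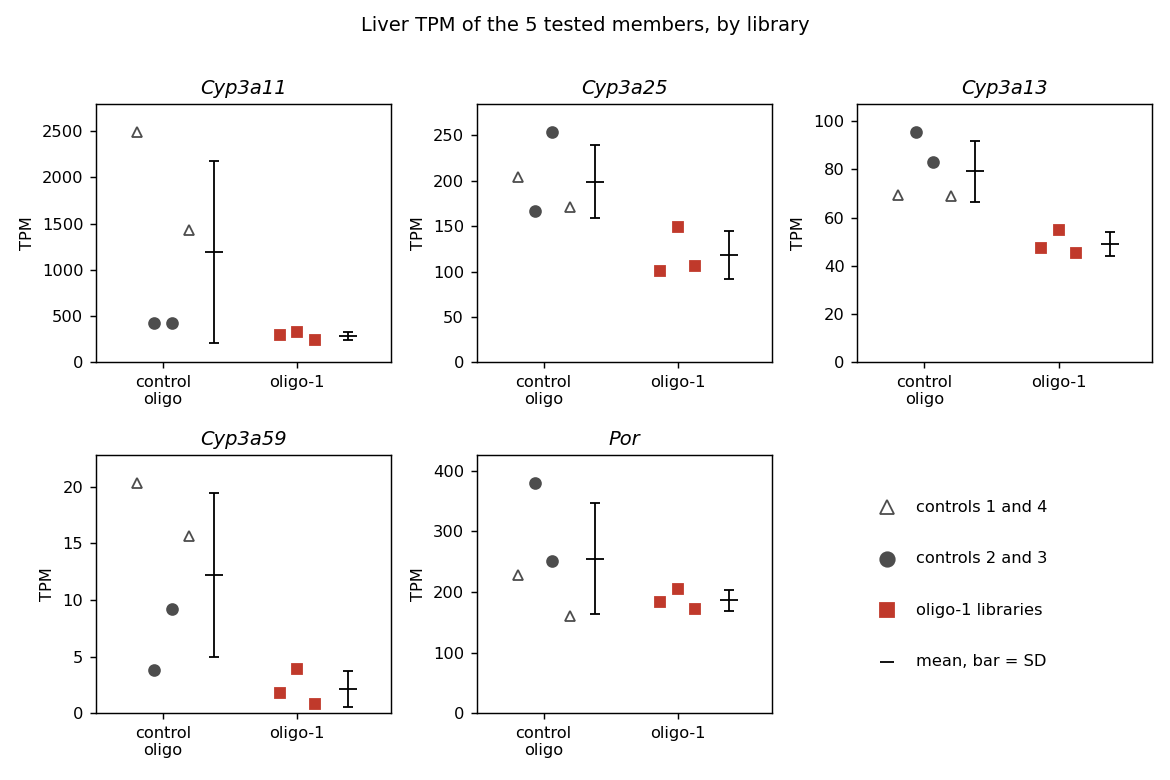
TPM of each tested member by library on a linear axis from 0, with 4 control oligo libraries (triangles, controls 1 and 4; circles, controls 2 and 3) and 3 oligo-1 libraries (squares); the bars beside the points are mean ± SD. Oligo-1 libraries lie below all controls for Cyp3a11, Cyp3a25 and Cyp3a13, and controls 1 and 4 are highest for Cyp3a11 and Cyp3a59 only.

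By mean TPM over the 7 libraries the order was Cyp3a11, Por, Cyp3a25, Cyp3a13, Cyp3a59 and Cyp3a44, followed by Cyp3a41a and Cyp3a16. Cyp3a11 was above Por in 7 of 7 libraries. Por and Cyp3a25 did not separate, since Por was above Cyp3a25 in 2 of 4 controls and in 3 of 3 oligo-1 libraries. From Cyp3a25 down to Cyp3a44 each gene was above the next in 7 of 7 libraries with no overlap of ranges within a group, whereas Cyp3a44, Cyp3a41a and Cyp3a16 overlapped near 0.

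Rescaling each library to the same median level gave smaller differences for all 5 tested members. The log2 fold change became -1.45 for Cyp3a11 (unadjusted p = 0.0176), -1.84 for Cyp3a59 (0.00240), -0.56 for Cyp3a25 (0.0496), -0.49 for Cyp3a13 (0.105) and -0.20 for Por (0.612). All stayed below 0. After this scaling 1 of 5 members, Cyp3a59, met the combined rule (background 0.622% lower and 1.06% higher), and the groups did not overlap for Cyp3a11 and Cyp3a59 (background 4.69%), while those of Cyp3a13 and Cyp3a25 did. Without controls 1 and 4, all 5 members were lower at an unadjusted p below 0.05 (background 2.75% lower and 6.97% higher), 3 met the combined rule (Cyp3a13, Cyp3a25 and Por, background 0.89% lower and 2.09% higher), and 4 had groups that did not overlap (all but Cyp3a59, background 7.74%). No member passed the adjusted threshold there, and 1 gene of the table did (0.00956%, higher). The spread between members was narrower in this smaller comparison, with log2 fold changes from -1.26 to -0.56, against -1.98 to -0.38 with all libraries.

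**Figure D3:**
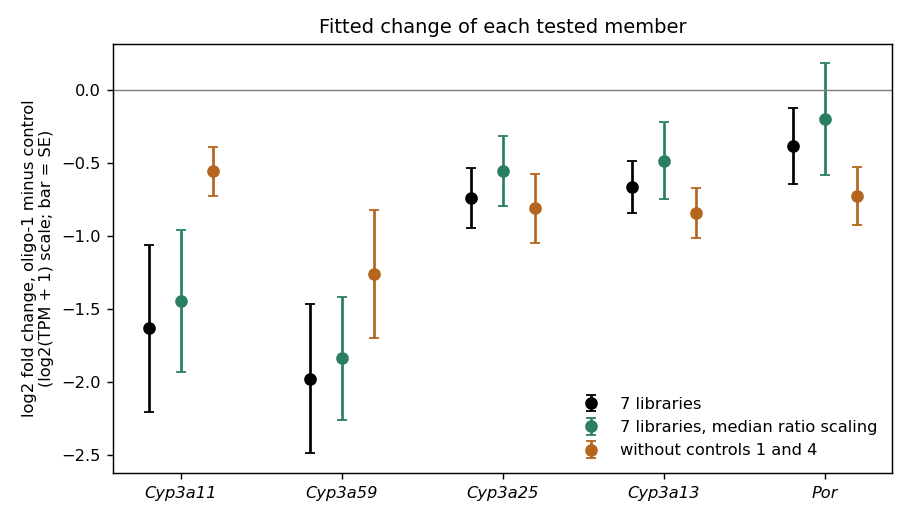
Log2 fold change of each tested member (oligo-1 minus control oligo, log2(TPM + 1) scale) with its SE as bars, from all 7 libraries (black), after median ratio scaling (green) and without controls 1 and 4 (brown). Every estimate is below 0, and leaving out controls 1 and 4 moves Cyp3a11 from -1.63 to -0.56 and Por from -0.38 to -0.73.

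Because reads can pass between near-identical members, the Cyp3a genes were also summed. The sum over the 7 Cyp3a members was 2782, 689, 770 and 1684 TPM in controls 1 to 4 and 445, 538 and 396 TPM with oligo-1. All 3 oligo-1 libraries were below all controls. The mean was 1481 ± 977 (SD, n = 4) in controls and 460 ± 72.5 (SD, n = 3) with oligo-1, and controls 2 and 3 alone averaged 729 TPM. Without Cyp3a11 the sum was 293, 266, 346 and 256 TPM in the controls and 150, 208 and 152 TPM with oligo-1, again without overlap, and here controls 1 and 4 were like controls 2 and 3. After median ratio scaling the sum of all members was 2163, 828, 812 and 1370 in controls and 471, 537 and 467 with oligo-1. The sum of all members did not overlap on this scale either, and no test was made on it. The sum without Cyp3a11 is not given on this scale, where the groups of Cyp3a25 and Cyp3a13 overlapped.

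The make-up of the sum separated controls 1 and 4 rather than the treatment groups. Cyp3a11 contributed 89.5%, 61.4%, 55.1% and 84.8% in controls 1 to 4 and 66.4%, 61.4% and 61.5% with oligo-1. Cyp3a25 contributed 7.31%, 24.2%, 32.9% and 10.1% in controls and 22.6%, 27.7% and 26.8% with oligo-1. The oligo-1 libraries thus lay near controls 2 and 3 in composition while their total was lower. Cyp3a13 contributed between 2.49% and 13.8% and Cyp3a59 between 0.213% and 1.19% over all libraries. Por stood at 8.22, 55.1, 32.6 and 9.57 TPM per 100 TPM of the Cyp3a sum in controls 1 to 4, and at 41.2, 38.2 and 43.4 with oligo-1. The ratio of reductase to P450 transcripts in the oligo-1 libraries therefore lay between those of controls 2 and 3.

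**Figure D4:**
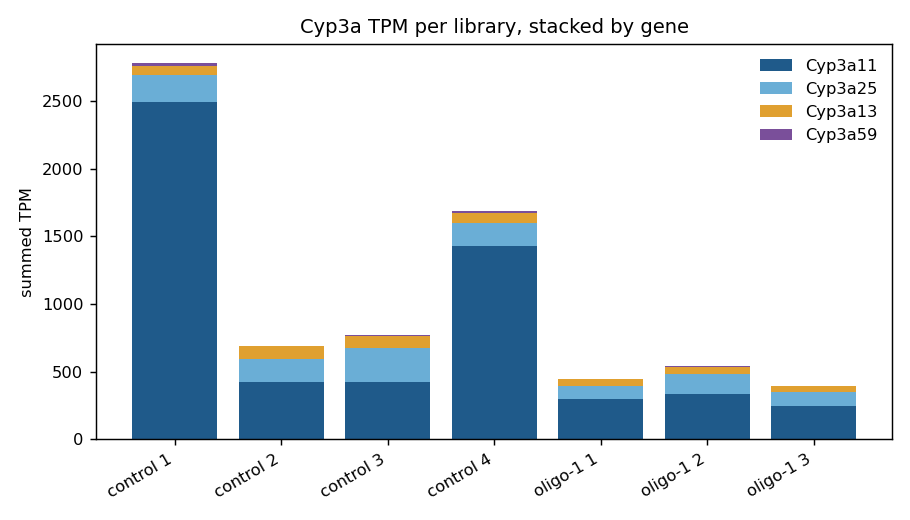
TPM of Cyp3a11, Cyp3a25, Cyp3a13 and Cyp3a59 stacked per library, on a linear axis from 0; the remaining Cyp3a members add less than 1 TPM. Totals are 689 to 2782 TPM in the 4 controls and 396 to 538 TPM in the 3 oligo-1 libraries, and the excess of controls 1 and 4 is Cyp3a11.

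Across the 7 libraries, on the log2(TPM + 1) scale, Cyp3a11 varied most closely with Cyp3a59 (Pearson r = 0.91) and less with Cyp3a25 (0.54), Cyp3a13 (0.38) and Por (-0.04). Cyp3a13 varied with Cyp3a25 (0.81) and Por (0.78). Over the 5 libraries without controls 1 and 4, Cyp3a11 had r = 0.94 with Cyp3a13 and 0.86 with Por. These are descriptions over few libraries that include both treatment groups, and Cyp3a25 and Cyp3a59 also share reads. The tested genes whose pattern over the 7 libraries was most like that of Cyp3a11 were Ndrg1 (r = 0.997), Znfx1 (0.997), Pus10 (0.996), Cramp1 (0.995) and Champ1 (0.995). Those most like Por were Osbpl5 (0.969), Slc25a29 (0.941), Derl3 (0.941), Mrps34 (0.931) and Slc6a9 (0.931). Ndrg1 shows the pattern at a far lower level, at 11.8, 4.80, 4.81 and 9.73 TPM in the controls and 3.86, 4.05 and 3.63 TPM with oligo-1.

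Among 12 other genes of electron transfer and haem supply, 1 met the combined rule, and it was higher (background 0.641%). This was Cyb5r3, the NADH-cytochrome b5 reductase, which feeds electrons to cytochrome b5 independently of Por. It was at 176, 168, 267 and 183 TPM in controls and at 342, 344 and 410 TPM with oligo-1. Every oligo-1 library was above every control (as for 2% of all tested genes), and the difference ran opposite to that of the Cyp3a genes. Its log2 fold change was 0.90 (SE 0.19, unadjusted p = 0.00101, adjusted p = 0.293 in limma), 1.08 after median ratio scaling and 0.78 without controls 1 and 4. The fitted log2 difference was -0.13 (SE 0.15) for Cyb5a, cytochrome b5 itself, and -0.08 (SE 0.19) for Alas1, the rate-limiting enzyme of haem synthesis, and both turned positive after scaling (0.06 and 0.11). Cyb5r1 was at 9.05, 1.82, 3.15 and 10.01 TPM in the controls and 2.01, 2.55 and 1.65 TPM with oligo-1. Its log2 difference of -0.98 (SE 0.46, adjusted p = 0.768 in limma) was -0.17 without controls 1 and 4. The list's median was -0.13, and 0.06 after scaling, beside -0.16 and 0.00 over all tested genes.

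Of 16 regulators of Cyp3a transcription, 1 was lower (Foxa3) and 2 were higher (Nr0b2 and Dbp) at an unadjusted p below 0.05 (background 4.25% and 1.81%). None passed the adjusted threshold. After scaling 0 were lower and 3 were higher (background 3.86% and 4.69%). When controls 1 and 4 were left out, the lower genes were Nr1i3 and Hnf4a, which encodes HNF4α, and no longer Foxa3 (background 2.75%). Nr1i2, which encodes PXR, was at 44.7, 56.0, 48.3 and 43.3 TPM in controls and at 47.9, 44.9 and 45.8 TPM with oligo-1, with overlapping groups and a log2 fold change of -0.05 (SE 0.16, 95% interval -0.41 to 0.31), which was 0.13 after scaling. For Rxra, its partner, the log2 difference was -0.02 (SE 0.19), and it was 0.16 after scaling. Nr1i3, which encodes CAR, was at 23.2, 92.8, 86.6 and 17.3 TPM in controls and at 60.5, 53.2 and 46.4 TPM with oligo-1. Controls 1 and 4 were the lowest libraries and controls 2 and 3 the highest, with all oligo-1 libraries between. Its log2 fold change was 0.31 (SE 0.55) with all libraries and -0.75 (SE 0.17, unadjusted p = 0.00226, adjusted p = 0.202) without controls 1 and 4, so its direction turned on these. Nr0b2, the small heterodimer partner that represses nuclear receptors, was at 43.1, 25.03, 76.7 and 25.7 TPM in the controls and 94.9, 92.3 and 107 TPM with oligo-1, which gave a log2 difference of 1.33 (SE 0.35, adjusted p = 0.458 in limma). Dbp, a circadian transcription factor, was at 14.3, 46.5, 90.1 and 31.4 TPM in the controls and 111, 122 and 120 TPM with oligo-1 (log2 fold change 1.63, SE 0.49, adjusted p = 0.608 in limma, and 0.85, SE 0.26, without controls 1 and 4). Both were higher in every oligo-1 library than in any control, as were 2% of all tested genes. The median of the regulators was -0.06, and 0.11 after scaling.

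Of 22 further targets of PXR and CAR, 20 were tested, and 5 were lower and 0 were higher at an unadjusted p below 0.05 (Cyp2b10, Gsta2, Abcc3, Abcb1a and Slco1a4). The background over all tested genes was 4.25% lower and 1.81% higher. When controls 1 and 4 were left out, 8 were lower and 1 was higher (Cyp2c55), with a background of 2.75% lower and 6.97% higher. Of the 5 genes, Cyp2b10 and Abcc3 were still below the unadjusted threshold there, and Gsta2 (unadjusted p = 0.0961 in limma), Abcb1a (0.139) and Slco1a4 (0.141) were not. Cyp2b10, the classical CAR target among P450 genes, was at 16.0, 20.7, 2.54 and 15.6 TPM in controls and at 0.431, 1.85 and 1.95 TPM with oligo-1. Control 3 lay close to the oligo-1 libraries but above them. The log2 fold change was -2.40 (SE 0.59, adjusted p = 0.440 in limma), and -1.94 (SE 0.66) without controls 1 and 4. Abcc3, a basolateral efflux pump, was at 30.1, 17.1, 16.7 and 24.9 TPM in the controls and 11.1, 9.80 and 11.4 TPM with oligo-1, with no overlap (log2 fold change -0.94, SE 0.24, adjusted p = 0.450 in limma, and -0.61, SE 0.18, without controls 1 and 4). Gsta2, a glutathione transferase, was also highest in controls 1 and 4, with 146, 22.3, 24.3 and 106 TPM in the controls and 17.9, 20.4 and 6.89 TPM with oligo-1. Its log2 difference was -1.91 (SE 0.68) with all libraries and -0.72 (SE 0.39) without controls 1 and 4. The list's median was -0.20, -0.01 after scaling and -0.46 without controls 1 and 4, beside -0.16, 0.00 and 0.06 over all tested genes.

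**Figure D5:**
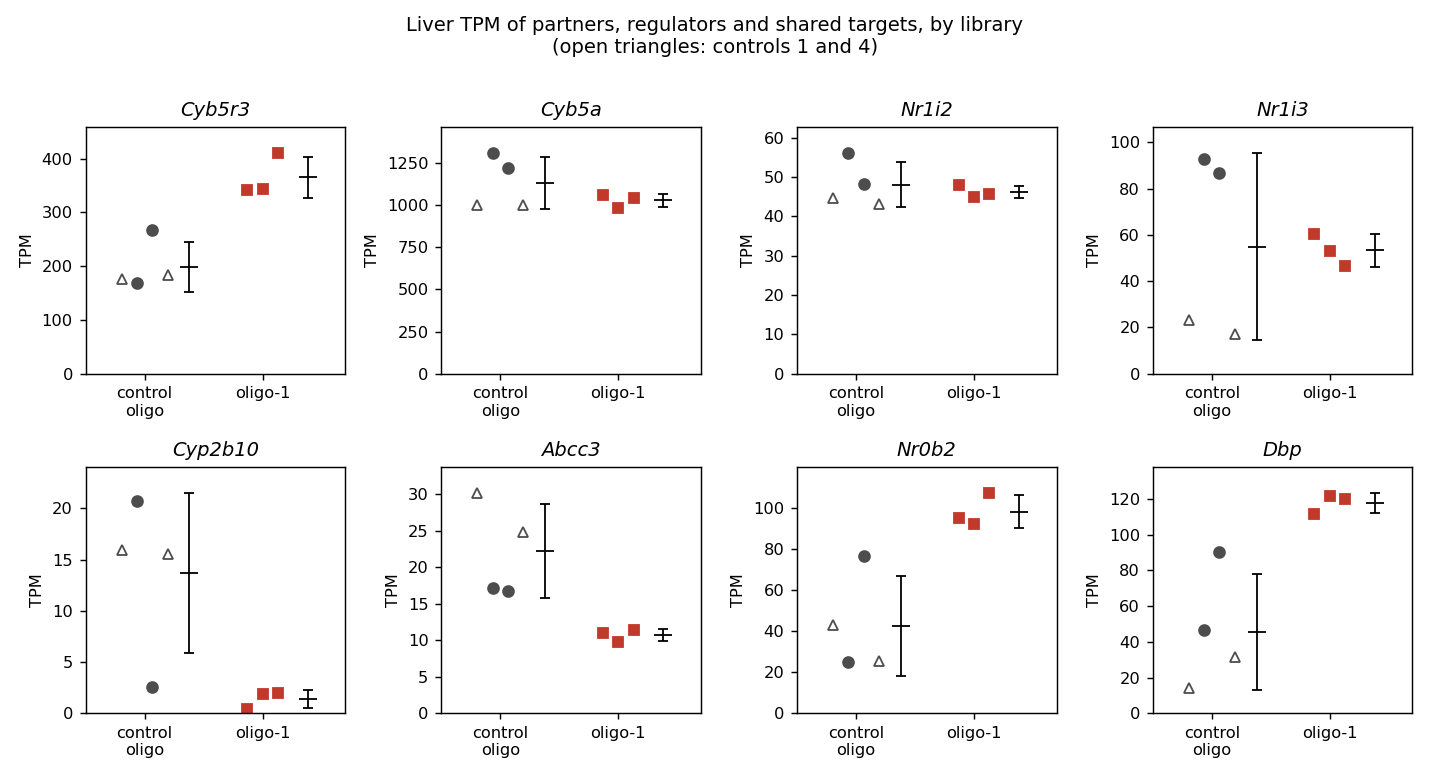
TPM by library of the electron donors Cyb5r3 and Cyb5a, the receptors Nr1i2 (PXR) and Nr1i3 (CAR), the shared targets Cyp2b10 and Abcc3, and the regulators Nr0b2 and Dbp, on linear axes from 0; open triangles are controls 1 and 4, circles controls 2 and 3, squares the 3 oligo-1 libraries, bars mean ± SD. Cyb5r3, Nr0b2 and Dbp are higher in all oligo-1 libraries, Cyp2b10 and Abcc3 are lower, Nr1i2 overlaps, and Nr1i3 is lowest in controls 1 and 4.

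Other microsomal P450 enzymes that draw on Por did not share one direction. Of 17 tested, 2 were lower (Cyp2a12 and Cyp7a1) and 2 were higher (Cyp8b1 and Cyp51) at an unadjusted p below 0.05 (background 4.25% and 1.81%). Cyp8b1, the sterol 12α-hydroxylase of bile acid synthesis, was at 49.8, 54.0, 79.8 and 50.5 TPM in the controls and 124, 115 and 157 TPM with oligo-1. Cyp51, of cholesterol synthesis, was at 10.1, 8.92, 19.0 and 10.7 TPM in the controls and 35.9, 28.5 and 50.6 TPM with oligo-1. For both, every oligo-1 library was above every control (as for 2% of all tested genes). The log2 difference was 1.18 (SE 0.21) for Cyp8b1 and 1.60 (SE 0.29) for Cyp51, each with an adjusted p of 0.202 in limma. The median of the list was -0.10, 0.09 after scaling and -0.38 without controls 1 and 4, where 7 were lower and 2 higher at an unadjusted p below 0.05 (background 2.75% and 6.97%).

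Gene groups that differ with sex, zone or inflammation were read in the same libraries, and their part in the Cyp3a values was not tested. Male-biased and pericentral genes were lower in summed level in controls 1 and 4, where Cyp3a11 and Cyp3a59 were highest, whereas the sums of acute phase and periportal genes in controls 1 and 4 overlapped those of controls 2 and 3. Of 20 male-biased liver genes, 11 were lower in controls 1 and 4 than in all other libraries, with a summed level of 13900 to 14591 TPM in these and 31147 to 34948 TPM in controls 2 and 3, against 25293 to 44176 TPM with oligo-1. The list's median log2 fold change was 0.995, and 0.09 without controls 1 and 4. At an unadjusted p below 0.05, 6 were higher and 0 lower (background 1.81% and 4.25%). Without controls 1 and 4, 3 were higher and 0 lower (background 6.97% and 2.75%). Among 18 female-biased genes, 8 were tested and 1 (Fmo2) was lower at an unadjusted p below 0.05 (background 4.25%), with a list median of -0.37. Fmo2 did not pass after scaling (unadjusted p = 0.121 in limma). Of the 18, 6 were higher and 3 were lower in controls 1 and 4 than in all other libraries, against 51.5% higher and 4.45% lower of all tested genes. The list summed to 197 to 270 TPM in controls 1 and 4, 117 to 155 TPM in controls 2 and 3 and 63.7 to 119 TPM with oligo-1. Among those higher, Cyp2a4, a female-predominant P450, reached 92.7 TPM in control 1 and 85.1 TPM in control 4, and was below 1 TPM elsewhere. Pericentral genes, from the zone around the central vein where Cyp3a11 is mainly expressed, summed to 2502 to 3254 TPM in controls 1 and 4, 7130 to 7142 TPM in controls 2 and 3 and 5012 to 6377 TPM with oligo-1. Most of this gap was Cyp2e1, at 1517 and 1134 TPM in controls 1 and 4, 4950 and 4710 TPM in controls 2 and 3 and 3203 to 4247 TPM with oligo-1. In controls 1 and 4, 5 of the 12 were lower and 1 was higher than in all other libraries, against 4.45% lower and 51.5% higher of all tested genes. Of the 12, 0 passed the unadjusted threshold, and 2 were lower without controls 1 and 4, Oat and Slc1a2 (background 2.75%). Of 12 periportal genes 2 (Sdsl and Cps1) were lower (background 4.25%), both near the threshold (unadjusted p = 0.0495 and 0.0498 in limma), with a list median of -0.42. After scaling 0 were lower (background 3.86%). Without controls 1 and 4, 2 were lower, Cyp2f2 and Cps1 (background 2.75%), and the list's median was -0.33. Sdsl no longer passed there (-0.23, unadjusted p = 0.357 in limma). The list summed to 7844 to 9197 TPM in controls 1 and 4, 7665 to 9078 TPM in controls 2 and 3 and 5998 to 7980 TPM with oligo-1. Acute phase genes, which inflammation raises, were lower with oligo-1 in 7 of 14 at an unadjusted p below 0.05 and higher in 0 (background 4.25% and 1.81%). Their median was -0.62, -0.45 after scaling and -0.49 without controls 1 and 4. Their summed level was 8102 to 8716 TPM in controls 1 and 4, 6568 to 9516 TPM in controls 2 and 3 and 5379 to 6120 TPM with oligo-1.

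Markers of intestine and pancreas were mixed. Of the 6 enterocyte markers, Alpi and Sis were listed at 0 in all libraries, Fabp2 was at 84.4 to 188 TPM and Vil1 at 0 to 0.118 TPM, and Apoa4, which hepatocytes also express, reached 2018 TPM in control 1 and 2999 TPM in control 4 against 221 to 447 TPM in the rest. The list's summed level was 2147 to 3187 TPM in controls 1 and 4, 397 to 429 TPM in controls 2 and 3 and 314 to 573 TPM with oligo-1, and its part in the Cyp3a values was not tested. Of the 5 pancreatic acinar markers, Cela3b, Pnlip and Prss2 were listed at 0 in all libraries, Cela2a was at 0 to 3.25 TPM (highest in control 2) and Cpa1 was above 0 only in oligo-1 replicate 2 (0.0422 TPM). Cholangiocyte markers summed to 52.2 to 52.5 TPM in controls 1 and 4, 22.3 TPM in controls 2 and 3 and 23.0 to 54.5 TPM with oligo-1. Sinusoidal endothelial markers summed to 80.0 to 98.1, 62.5 to 63.6 and 77.7 to 90.0 TPM. Of these 7 markers, 2 were higher in controls 1 and 4 than in all other libraries, against 51.5% of all tested genes. Markers of B cells, T cells and neutrophils summed to 2.24 to 14.1 TPM over all libraries.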

How the data were processed

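Liver mRNA of 7 mice was analysed, 4 given control oligo and 3 given tsRNA-Glu-CTC Oligo-1, with groups and replicate numbers taken from the library names. The authors extracted RNA with TRIzol, prepared Illumina libraries and quantified protein-coding genes with kallisto (build mm10; version: not given in the sources used here). The deposited values are TPM, which the authors obtained by correcting estimated reads for transcript length and scaling each library to a fixed total. The sources used here do not say how transcripts were combined into genes. Listed genes summed to 85.8% to 88.3% of the full TPM total, and 4144 of 21706 were at 0 throughout. TPM keeps no depth, so counting intervals were not computed. The authors used edgeR, which needs counts and was not used here.

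Genes with at least 1 TPM in at least 3 libraries (10455) were tested on log2(TPM + 1) with limma 3.58.1 in R 4.3.3 (trended prior, 2-sided, Benjamini-Hochberg over all tested genes), after a test on simulated data. The p-values weigh the group difference against the spread between these mice, which limma moderates with a trend over all tested genes. The alternatives were a pseudocount of 0.1, no filter, a stricter filter (at least 1 TPM in all 7 libraries), median ratio scaling, no trend, the replicate number as a block and leaving out each library. The combined rule uses the thresholds that the study states, but on the limma fit and not on edgeR, so the genes that meet it differ. The study's edgeR list of lower genes holds Cyp3a11 and Cyp3a59, and not Cyp3a13 or Cyp3a25. Positions came from GENCODE M21 and promoters from RefSeq (GRCm38.p6), aligned with Biopython 1.88. The genes described and all lists were chosen with earlier results of these data known. Besides the 8 genes and other Cyp3a genes, the text names the 2 genes of smallest p per list, chosen partners and regulators, the 5 genes most alike to Cyp3a11 and to Por, and marker genes that moved with controls 1 and 4. Gsta2, Foxa3, Cyp2e1 and further genes given as members of a count or sum were named after their values were seen.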

Additional observations from a re-analysis of the deposited data

Results flagged for a closer look

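Among the 79 genes checked for a control library far from the other 3, 8 had one, and some such flags arise by chance. Of the Cyp3a genes, the values of control 4 for Cyp3a16 (0.0407 TPM), Cyp3a41a (0.0933 TPM) and Cyp3a41b (0.00651 TPM) stood apart because the other controls were listed at 0. Control 3 stood above the other controls for Cyb5r3 (267 TPM), where it was the control nearest to the oligo-1 libraries, and for Cyp8b1 (79.8 TPM), and below them for Mup20 (7688 TPM), a major urinary protein gene. Control 2 stood below the others for Abcb1a, a drug efflux pump (0.366 TPM), and above them for Derl3 (10.7 TPM), and this was also the control in which Por was highest.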

How the results depend on the processing

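The log2 fold changes of the 5 tested members were negative in all 69 alternative values, and 2 of these passed the adjusted threshold. At an unadjusted p below 0.05, Cyp3a11 and Cyp3a13 passed in 13 of 14 alternatives, Cyp3a25 in 14 of 14, Cyp3a59 in 13 of 13 (the stricter filter left it out) and Por in 3 of 14. Leaving out each library in turn gave -1.99 to -1.14 for Cyp3a11, -0.75 to -0.57 for Cyp3a13, -0.92 to -0.62 for Cyp3a25, -2.39 to -1.64 for Cyp3a59 and -0.58 to -0.17 for Por, and -1.75 to -1.08 for the log2 difference of the Cyp3a sum (-1.46 with all libraries). The number of members that met the combined rule was then 0 to 3, with 0 without oligo-1 replicate 1 or 3, and was 1 of 5 after median ratio scaling. The number of genes lower by that rule was 42 to 295 (highest without control 2), that at an unadjusted p below 0.05 was 185 to 1521, and that called was 0 to 29 (29 without control 3). Without controls 1 and 4 (chosen after seeing the data), 1 gene was called and 287 were lower at an unadjusted p below 0.05. The cause of these shifts was not tested.

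With the replicate number as a block, 86 genes and 2 members were called, Cyp3a11 (-1.41, adjusted p = 0.00174) and Cyp3a59 (-1.80, adjusted p = 0.0101). Control 4 has no partner in that fit and adds nothing to these values. The labels do not say whether the numbers pair the mice. Libraries with the same number correlated in their deviations from the group means at 0.078, -0.015 and -0.115, and differently numbered ones at up to 0.144. With controls 1 and 4 standing apart, these few values cannot decide whether a pairing exists. The main results therefore use no block.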
